A study of Homo sapiens with 12 samples.

Results

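The standing difference in RNA levels between OCI-LY3 and OCI-LY10, a pair of established human lymphoma lines, was taken from all 8 arrays of these lines, out of 12 arrays in the study. Both lines come from diffuse large B cell lymphoma (DLBCL) of the activated B cell (ABC) type, and so does OCI-HBL1, the line on the other 4 arrays. The study asked how an inhibitor of IRAK kinases and an inhibitor of BET bromodomain proteins act in such cells, so each line was measured untreated and after the drugs, with 1 array for each line and treatment. The Control arrays are labelled 24 h, the CPI203 arrays had 500 nM of this BET inhibitor and are labelled 24 h, the IRAKi arrays had 50 µM of an IRAK inhibitor and are labelled 6 h, and the Combo arrays had both agents and are labelled 24 h. The treatment protocol instead gives 18 h for the BET inhibitor and 6 h for the IRAK inhibitor, so the label time of CPI203 and Combo is not the drug time it states. Each line stands for 1 tumour. The 4 arrays of a line are 4 treatments and not replicates, and nothing in the labels says that they came from separate cultures. A p-value here sets the line difference against its spread over treatments, in a fit that also holds the OCI-HBL1 arrays. That spread may be technical, and the spread between cultures of a line was not measured.

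ABC-DLBCL is known for NF-kB signalling that does not switch off. Signals from the B cell receptor run through PRKCB to the kinase IKK, and signals from Toll-like receptors (TLRs) run through MYD88 and the IRAK kinases to the same end. NF-kB then raises its own inhibitors, NFKBIA and TNFAIP3, and cytokines such as IL6 and IL10, which act through JAK kinases and STAT3. B cells also show antigen to T cells on MHC class II molecules, whose genes are switched on by CIITA together with the RFX complex on the promoter, and lymphomas are known to lose these molecules in some cases.

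Levels are log2 values on the RMA scale, so that a difference of 1 is 2-fold. A difference is OCI-LY3 minus OCI-LY10, averaged over the 4 treatments, with the moderated standard error (SE) of a limma fit in which cell line and treatment were terms. A gene was called at a Benjamini-Hochberg adjusted p below 0.05 in that fit, and its difference was counted as standing when it was called, had the same sign under all 4 treatments, and left no overlap between the 4 values of one line and the 4 of the other. Genes on X and Y were left out. A mean below 4.20, the 40th percentile of all values, is near the array's background, where levels have no reliable order. The size of a difference from such a mean is therefore uncertain, and so is its rank by size.

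The lines differed widely. Of 12642 autosomal genes tested, 5867 were called (46.4%), with 3229 higher in OCI-LY3 (25.5%) and 2638 higher in OCI-LY10 (20.9%). A standing difference was found for 3591 genes (28.4%), with 1968 higher in OCI-LY3 (15.6%) and 1623 higher in OCI-LY10 (12.8%). The split depends on the scaling: 55.04% of called genes were higher in OCI-LY3 on the deposited values, 42.89% after median centring, 49.52% after cyclic loess and 70.12% after scaling to the poly-A spike-ins. The median difference over all genes was 0.01 on the deposited values, fell to -0.10 after median centring and rose to 0.16 after poly-A scaling, so differences of that size have no settled direction. At least 2-fold under each of the 4 treatments were 994 of the standing genes (7.86%), 561 of them higher in OCI-LY3 (4.44%) and 433 higher in OCI-LY10 (3.43%). Among these 994 genes, OCI-LY10 had a mean near background for 92 and OCI-LY3 for 106. OCI-HBL1 lay nearer to OCI-LY3 for 537 of them and nearer to OCI-LY10 for 457.

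Array medians lay between 4.64 and 4.73 in these lines. The correlation between arrays was 0.969 to 0.990 within OCI-LY3, 0.965 to 0.986 within OCI-LY10 and 0.925 to 0.952 between the lines. The OCI-LY10 IRAKi array had a higher level over non-specific probe sets (4.00) than the other 7 (3.64 to 3.79), and without it 5268 genes were called and 3609 standing. B cell markers were present in both lines. All 6 measured markers were above 4.20 on every OCI-LY3 array, and 5 of 6 were so on every OCI-LY10 array, the exception being HLA-DRA, described next. All 10 ABC-type markers, among them IRF4, FOXP1 and BATF, were above 4.20 on every array of both lines. Of 8 germinal centre B cell markers, 5 were so in OCI-LY3 and 5 in OCI-LY10, so this level does not single out the ABC type. Among these 8, 1 was called higher in OCI-LY3 (BCL6, 1.05) and 1 higher in OCI-LY10 (MYO1E, -1.87). T cell markers CD3D and CD8A, monocyte markers CD163 and S100A8, and the epithelial marker EPCAM stayed below 4.20 on all 8 arrays. Over the whole lists, 4 of 16 T and NK cell, 3 of 11 monocyte and 0 of 12 epithelial and stromal markers were above 4.20 on all 4 arrays of OCI-LY3, and 6, 1 and 4 were so in OCI-LY10. The highest of these in OCI-LY10, GZMB, KRT8 and COL3A1, are given near the end.

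**Figure D1:**
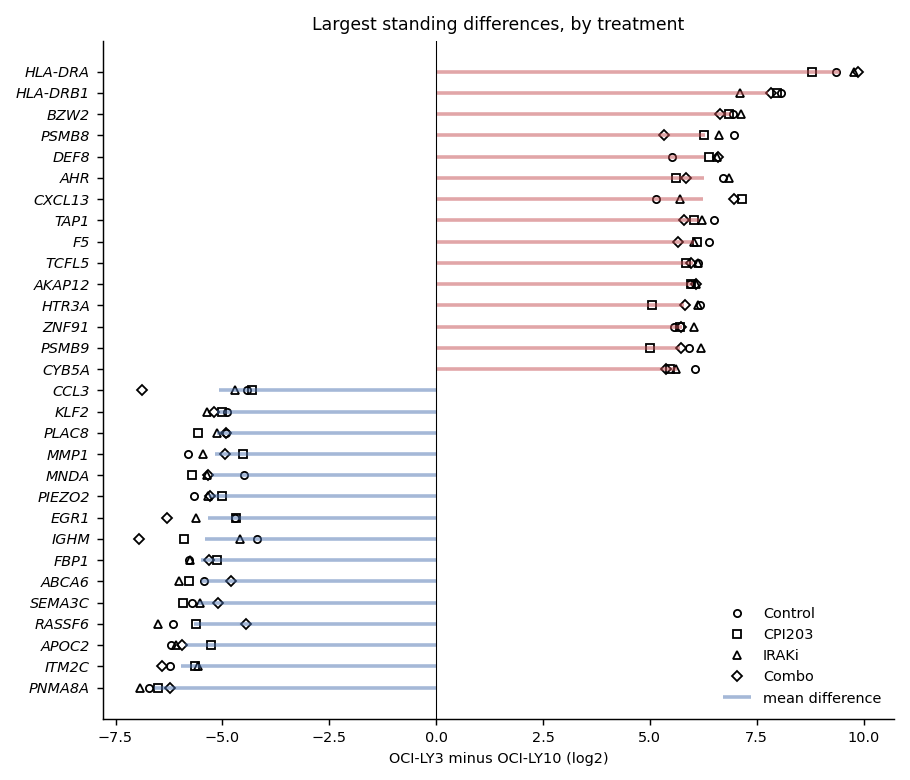
The 15 highest and 15 lowest standing differences, with the OCI-LY3 minus OCI-LY10 difference on the log2 scale on the horizontal axis, a symbol for each treatment and a bar to the mean. HLA-DRA had the highest mean (9.45) and PNMA8A the lowest (-6.60), and CCL3 and IGHM were furthest from 0 in Combo.

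The largest difference of all was in MHC class II. HLA-DRA, which encodes the alpha chain of HLA-DR, the main class II molecule, was at 13.65, 13.40, 13.49 and 13.48 in OCI-LY3 (Control, CPI203, IRAKi and Combo) and at 4.30, 4.60, 3.71 and 3.61 in OCI-LY10. The OCI-LY10 mean (4.05) was near background and OCI-LY3 was far above it under every treatment. The difference was 9.45 ± 0.17 (SE, n = 4 arrays a line, limma adjusted p = 9.9e-10). Its 2 probe sets gave 8.59 and 9.45. In bulk RNA of this kind, fewer cells with a transcript and less of it per cell cannot be told apart. HLA-DRB1, the partner beta chain, was at 11.51, 11.30, 11.14 and 11.48 in OCI-LY3 and at 3.44, 3.32, 4.03 and 3.64 in OCI-LY10, a difference of 7.75 ± 0.16 (adjusted p = 1.5e-09). HLA-DQA1, a chain of HLA-DQ, had a mean of 10.23 in OCI-LY3 and 4.89 in OCI-LY10 (difference 5.33 ± 0.21, adjusted p = 7.8e-08). Its other probe sets gave 0.06 to 7.17. The beta chain genes are close copies of one another and vary between people, so the signals of HLA-DRB1 and HLA-DRB5 may not be fully parted by these probe sets.

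Next in chromosome order, HLA-DQB1 (3.72 against 3.81) and HLA-DOB (4.18 against 4.37), named after their values were seen, were low in both lines and not called. Another probe set of HLA-DOB differed by 1.05 (4.66 against 3.61). OCI-HBL1 had HLA-DQB1 at 7.94, and whether its probes match the alleles of each line was not tested. Beyond HLA-DOB, 4 genes were again low in OCI-LY10. TAP1 and TAP2 form the pump that brings peptides to MHC class I molecules, and PSMB8 and PSMB9 are the catalytic subunits of the immunoproteasome that cuts those peptides. TAP1 was at 10.12, 9.30, 9.87 and 9.12 in OCI-LY3 and at 3.62, 3.28, 3.66 and 3.31 in OCI-LY10 (difference 6.14 ± 0.14, adjusted p = 2.9e-09). PSMB8 was at 10.77, 9.78, 10.13 and 9.92 in OCI-LY3 against 3.81, 3.52, 3.51 and 4.58 in OCI-LY10 (difference 6.29 ± 0.23, adjusted p = 4.7e-08). PSMB9 differed by 5.71 ± 0.19 (10.16 against 4.45) and TAP2, named after its values were seen, by 2.81 ± 0.14 (6.66 against 3.85). None of these 4 genes had overlapping values between the lines, and in each the OCI-LY10 mean was near background or within 0.3 of it.

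The difference stopped within the region. HLA-DMA and HLA-DMB encode the chaperone that loads class II molecules with peptide, and both were well above background in both lines. HLA-DMA was slightly higher in OCI-LY10 (10.36 against 9.83, difference -0.53 ± 0.09, adjusted p = 0.0012), a call that poly-A scaling ended (-0.38, adjusted p = 0.13). HLA-DMB, named after its values were seen, had means of 9.70 in OCI-LY3 and 9.62 in OCI-LY10 (difference 0.08, 95% interval -0.22 to 0.39). HLA-DPA1, also named after its values were seen, was high in both lines, at 13.57 to 13.74 in OCI-LY3 and 13.36 to 13.52 in OCI-LY10 (difference 0.21, 95% interval -0.01 to 0.43, adjusted p = 0.11). HLA-DPB1, likewise chosen, differed by 1.24 ± 0.11 (adjusted p = 1.5e-05) but had 11 probe sets whose differences ran from -5.41 to 7.37, and those of HLA-DPA1 ran from -2.88 to 0.21, so the level of this pair depends on the probe set. Of the 16 tested genes from HLA-DRA to HLA-DPB1, 10 had a standing difference, 9 of them higher in OCI-LY3. Over all genes 28.4% had a standing difference, and 15.6% had one that was higher in OCI-LY3.

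**Figure D2:**
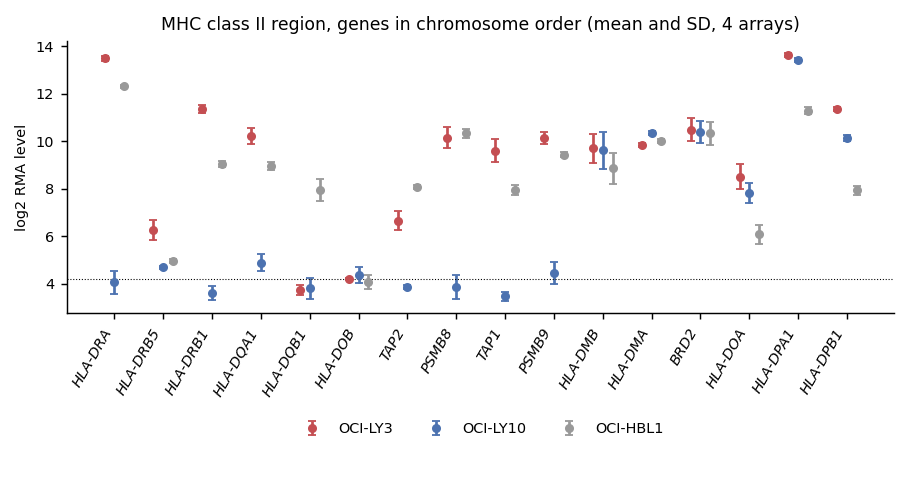
Mean log2 level with SD over 4 arrays for each line, for the 16 tested genes of the class II region in chromosome order, with the background level of 4.20 as a dotted line. From HLA-DRA to PSMB9 OCI-LY10 stays between 3.47 and 4.89, whereas from HLA-DMB to HLA-DPB1 its means differ from those of OCI-LY3 by 1.24 at most.

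Regulators of class II genes differed less than HLA-DRA did. CIITA, the master activator of class II genes, was at 8.09, 8.30, 7.98 and 7.32 in OCI-LY3 and at 8.93, 8.74, 8.46 and 7.72 in OCI-LY10, higher in OCI-LY10 under each treatment (difference -0.54 ± 0.12, adjusted p = 0.0045). That call was lost without the treatment block (adjusted p = 0.16) and under poly-A scaling (adjusted p = 0.14). CD74, the invariant chain that escorts class II molecules, was at 11.62 to 12.02 in OCI-LY10 and 12.02 to 12.41 in OCI-LY3 (difference 0.42 ± 0.10, adjusted p = 0.008), and without the CPI203 arrays its adjusted p was 0.071. RFXAP, a subunit of the RFX complex, was higher in OCI-LY3 (8.69 against 6.37, difference 2.32 ± 0.15, adjusted p = 2.1e-06). Of 18 tested MHC class II genes, 10 were higher in OCI-LY3 (55.6% against 25.5% of all genes), 2 were higher in OCI-LY10 (11.1% against 20.9%) and 6 were not called, with a median difference of 0.42 against 0.01 over all genes.

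Promoter sequences of this region, from RefSeq on GRCh38.p14, are shown because genes with and without the difference lie next to each other. Each line gives the 150 bases before the transcription start, 5′ to 3′ on the gene's strand, for HLA-DRB1 (minus strand, chr6:32589849-32589998), HLA-DPB1 (plus strand, chr6:33075840-33075989) and HLA-DMA (minus strand, chr6:32953098-32953247). Capitals mark ATTGG or its reverse complement CCAAT, the core letters of the Y box at class II promoters.
HLA-DRB1: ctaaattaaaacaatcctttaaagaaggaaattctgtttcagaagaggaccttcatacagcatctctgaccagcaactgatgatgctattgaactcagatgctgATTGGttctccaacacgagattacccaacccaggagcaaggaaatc
HLA-DPB1: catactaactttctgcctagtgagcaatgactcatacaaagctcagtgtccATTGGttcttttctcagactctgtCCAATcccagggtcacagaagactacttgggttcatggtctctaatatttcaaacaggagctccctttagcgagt
HLA-DMA: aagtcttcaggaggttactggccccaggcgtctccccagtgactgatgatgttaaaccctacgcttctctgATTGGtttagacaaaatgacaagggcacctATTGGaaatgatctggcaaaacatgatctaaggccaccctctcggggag
ATTGG or CCAAT was found in all 3 windows, and in 23.5% of 35116 promoter windows of this length. The letters are in the reference genome and were not read from these lines. They were present both at HLA-DRB1, which differed by 7.75, and at HLA-DMA, which differed by -0.53.

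MHC class I genes outside that stretch differed less evenly. HLA-B was at 12.89 to 13.09 in OCI-LY3 and at 9.19 to 9.74 in OCI-LY10 (difference 3.56 ± 0.11, adjusted p = 1.5e-08), with 3 probe sets from 0.37 to 3.65. ERAP1, which trims peptides in the endoplasmic reticulum, was higher in OCI-LY10 (8.36 against 6.41, difference -1.95 ± 0.15, adjusted p = 5.5e-06), but 2 of its 4 other probe sets had the opposite sign. NLRC5, the activator of class I genes, was also higher in OCI-LY10 (8.97 against 7.90, difference -1.07 ± 0.25, adjusted p = 0.0058), and its ranges overlapped. Among the 12 class I genes tested outside the stretch, 5 were higher in OCI-LY3 (41.7% against 25.5% of all genes), 3 higher in OCI-LY10 (25% against 20.9%) and 4 not called, with a median difference of 0.02. With TAP1, TAP2, PSMB8 and PSMB9 the list has 16 genes and a median of 0.54.

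Among 9 tested genes of the immunoglobulin list, IGHM, JCHAIN and IGLL5 were higher in OCI-LY10 (33.3% against 20.9% of all genes), 0 were higher in OCI-LY3 and 6 were not called. IGHM, the heavy chain of IgM, was at 13.46, 13.64, 13.58 and 13.47 in OCI-LY10 and at 9.26, 7.73, 8.98 and 6.52 in OCI-LY3. OCI-LY10 held one level under all treatments, whereas OCI-LY3 was lower on the CPI203 and Combo arrays, and the mean difference was -5.41 ± 0.42 (adjusted p = 6.2e-06). JCHAIN, which joins IgM and IgA units into polymers, was at 9.83 to 10.51 in OCI-LY10 and at 5.21 to 5.89 in OCI-LY3 (difference -4.74 ± 0.18, adjusted p = 6.2e-08). IGLL5, a light chain-like gene at the lambda locus, differed by -4.01 ± 0.37 (4.74 against 8.75). IGKC, the kappa light chain, was low in both lines, at 4.45 and 4.73 (difference -0.28, adjusted p = 0.14). MZB1, a chaperone of IgM assembly, was at 3.82 to 5.09 in OCI-LY3 and at 7.71 to 8.95 in OCI-LY10 (difference -3.92 ± 0.12, adjusted p = 1.9e-08). Of 17 tested genes of the plasma cell and secretory list, 8 were higher in OCI-LY10 (47.1% against 20.9% of all genes) and 2 in OCI-LY3 (11.8% against 25.5%). PRDM1, which drives plasma cell fate, was at 10.22 to 11.24 in OCI-LY3 and 10.55 to 11.06 in OCI-LY10 (difference -0.11, 95% interval -0.49 to 0.27).

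Below the B cell receptor, members differed in both directions. CD79B and CD79A are the receptor's signalling chains. CD79B had means of 9.42 in OCI-LY3 and 9.62 in OCI-LY10 (difference -0.19, 95% interval -0.61 to 0.22). With probe sets averaged per gene CD79B was called (-0.42, limma adjusted p = 0.025). CD79A was slightly higher in OCI-LY10 (9.30 against 8.72, difference -0.58 ± 0.14, adjusted p = 0.0066), a call that ended under poly-A scaling (adjusted p = 0.12). PRKCB, the kinase that passes the signal on towards IKK, was at 4.66, 4.10, 4.26 and 3.61 in OCI-LY3 and at 8.99, 9.41, 8.88 and 9.63 in OCI-LY10. OCI-LY3 was low under each treatment, and the difference was -5.07 ± 0.23 (adjusted p = 2.5e-07), with 3 probe sets from -5.07 to -1.03. The inhibitory coreceptors CD72 and FCGR2B and the phosphatase PTPN6 were also higher in OCI-LY10. Not all inhibitory members went this way. The coreceptor CD22 (difference 1.19) and the phosphatase INPP5D (0.52), named after their values were seen, were called higher in OCI-LY3. CD72 differed by -3.18 ± 0.28 (5.08 against 8.26), FCGR2B by -3.08 ± 0.17 (5.86 against 8.94) and PTPN6 by -2.95 ± 0.27 (6.35 against 9.30). Higher in OCI-LY3 were the Src-family kinases FYN (difference 1.97 ± 0.14, adjusted p = 3.8e-06) and BLK (1.63 ± 0.14, adjusted p = 1.2e-05), and NFATC2, a calcium-activated transcription factor (10.52 against 8.13, difference 2.39 ± 0.14, adjusted p = 1.1e-06). In all, 15 of 36 tested genes were higher in OCI-LY3 (41.7% against 25.5% of all genes), 13 were higher in OCI-LY10 (36.1% against 20.9%) and 8 were not called, with a median difference of 0.16.

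Among NF-kB regulators most called genes were higher in OCI-LY3. Of 29 tested genes of the NF-kB list, 15 were higher in OCI-LY3 (51.7% against 25.5% of all genes) and 2 in OCI-LY10 (6.9% against 20.9%). The other 12 were not called, and the median difference was 0.39. Of the 5 NF-kB subunits, RELB was called, and is named after its values were seen (8.82 against 8.43, difference 0.39 ± 0.12, adjusted p = 0.018). The others were not called: NFKB1 differed by -0.07 (95% interval -0.36 to 0.23), REL by 0.14 (-0.31 to 0.60), RELA by 0.26 (-0.07 to 0.59) and NFKB2 by 0.34 (-0.02 to 0.69). In the fit of the 8 arrays alone NFKB2 was called (adjusted p = 0.042). TNFAIP3, the ubiquitin-editing brake on the pathway, was at 11.15, 10.67, 11.29 and 10.90 in OCI-LY3 and at 9.24, 9.60, 8.63 and 9.48 in OCI-LY10, with no overlap (difference 1.77 ± 0.26, adjusted p = 0.00042). NFKBIA, the inhibitor that holds NF-kB in the cytoplasm, was 1.07 ± 0.18 higher (12.85 against 11.78, adjusted p = 0.00091), and the OCI-LY3 Control value (12.31) lay below the OCI-LY10 Combo value (12.41). IKBKB, a catalytic subunit of IKK, was 1.61 ± 0.15 higher (7.61 against 6.00, adjusted p = 1.7e-05). TRAF1, an adaptor that NF-kB raises, was 1.93 ± 0.33 higher (adjusted p = 0.00087), at 8.79, 7.16, 8.66 and 5.73 in OCI-LY3 against 7.08, 4.93, 6.03 and 4.57 in OCI-LY10. In the other direction, NFKBID, a nuclear member of the inhibitor family, had means of 6.87 in OCI-LY3 and 7.87 in OCI-LY10 (adjusted p = 0.00079).

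TLR genes were split. MYD88 was at 8.57 to 9.76 in OCI-LY3 and 8.64 to 9.67 in OCI-LY10 (difference -0.12, 95% interval -0.36 to 0.13). LY86 and CD180 encode the MD-1 and RP105 proteins, which form a TLR-like complex on B cells, and both were higher in OCI-LY10. LY86 was at 4.56 to 5.29 in OCI-LY3 and 7.94 to 9.19 in OCI-LY10 (difference -3.40 ± 0.24, adjusted p = 3.8e-06), and CD180 differed by -2.14 ± 0.33 (adjusted p = 0.00054), a call lost without the treatment block (adjusted p = 0.051). TLR10 was at 9.43, 7.55, 8.50 and 7.39 in OCI-LY3 and at 6.05, 4.43, 5.64 and 4.51 in OCI-LY10 (difference 3.06 ± 0.15, adjusted p = 3.5e-07), lower on the CPI203 and Combo arrays in both lines. TLR9, which senses DNA, had means of 5.47 and 4.78 (difference 0.70 ± 0.23, adjusted p = 0.033) and lost its call without the Control, CPI203 or IRAKi arrays. Of 22 tested genes, 11 were higher in OCI-LY10 (50.0% against 20.9% of all genes) and 5 in OCI-LY3 (22.7%, near the 25.5% of all genes), with a median difference of -0.44. After poly-A scaling the counts were 6 and 6, and without the treatment block 5 and 3.

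Feedback inhibitors of cytokine signalling differed in both directions, SOCS3 and SOCS2 being higher in OCI-LY3 and SOCS1 higher in OCI-LY10 (6.72 against 7.53, difference -0.80 ± 0.16, adjusted p = 0.0022). SOCS3, a feedback inhibitor that STAT3 raises, was at 9.69, 8.21, 10.73 and 8.72 in OCI-LY3 and at 4.60, 5.05, 5.71 and 6.41 in OCI-LY10 (difference 3.90 ± 0.46, adjusted p = 9e-05). SOCS2, which STAT5 raises, was at 9.56, 6.24, 8.58 and 6.42 in OCI-LY3 and at 3.71 to 4.12 in OCI-LY10 (difference 3.78 ± 0.54, adjusted p = 0.00032). STAT5A itself was at 8.14, 6.36, 8.10 and 6.21 in OCI-LY3 against 5.21, 4.95, 4.78 and 4.77 in OCI-LY10 (difference 2.28 ± 0.31, adjusted p = 0.00021). Each of SOCS3, SOCS2 and STAT5A was lower in OCI-LY3 on the CPI203 and Combo arrays than on the other arrays, with SOCS3 in Combo above its CPI203 value. IL6, which signals through STAT3, was at 7.17, 6.00, 8.71 and 5.58 in OCI-LY3 and at 5.71, 4.26, 4.09 and 4.07 in OCI-LY10 (difference 2.33 ± 0.49, adjusted p = 0.0034), with an overlap of Combo in OCI-LY3 and Control in OCI-LY10. STAT3 had means of 11.21 and 11.49 (difference -0.27, 95% interval -0.71 to 0.17), and JAK1 was 1.05 ± 0.12 lower in OCI-LY3 (adjusted p = 6e-05). The other kinases of the JAK family, named after their values were seen, were called higher in OCI-LY3. They were JAK2 (difference 1.70), JAK3 (1.73) and TYK2 (0.93). Of 24 tested genes, 11 were higher in OCI-LY3 (45.8% against 25.5% of all genes) and 6 in OCI-LY10 (25%, near the 20.9% of all genes), with a median difference of 0.50.

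IL10 showed no standing difference. It was at 8.32, 6.08, 9.59 and 5.23 in OCI-LY3 and at 8.82, 8.32, 9.13 and 9.42 in OCI-LY10. The lines were within 0.49 of each other in Control and IRAKi, and OCI-LY3 was 2.24 lower in CPI203 and 4.20 lower in Combo. The mean difference was -1.62 ± 0.61 (adjusted p = 0.053), and without the IRAKi arrays it was -2.31 (adjusted p = 0.017). The change of the difference with CPI203 was -3.20 ± 0.60 and was not called (adjusted p = 0.17).

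Chemokine genes separated the lines in both directions. CXCL13, the ligand that draws cells bearing CXCR5 into follicles, was at 11.59, 10.54, 10.83 and 11.13 in OCI-LY3 and at 6.44, 3.38, 5.14 and 4.16 in OCI-LY10 (difference 6.24 ± 0.39, adjusted p = 1.5e-06). CXCR5 was also higher in OCI-LY3 (11.83 against 9.98, difference 1.85 ± 0.20, adjusted p = 4.9e-05). CCL22, a ligand of CCR4, was at 10.63, 8.54, 9.88 and 8.26 in OCI-LY3 against 6.90, 5.36, 5.86 and 5.53 in OCI-LY10, lower with CPI203 in OCI-LY3 but above OCI-LY10 throughout (difference 3.41 ± 0.28, adjusted p = 9.8e-06). CCL3, an inflammatory chemokine, was low in OCI-LY3 (4.10 to 4.48) and at 8.52, 8.54, 9.18 and 11.14 in OCI-LY10 (difference -5.08 ± 0.55, adjusted p = 5.4e-05). S1PR1, the receptor by which lymphocytes leave lymphoid tissue, was at 3.36 to 3.56 in OCI-LY3 and had a mean of 6.82 in OCI-LY10, with the lowest value, 5.62, in Combo (difference -3.33 ± 0.39, adjusted p = 9e-05). Its transcriptional activator KLF2 was at 4.08 to 4.77 in OCI-LY3 and at 9.21 to 9.97 in OCI-LY10 (difference -5.12 ± 0.13, adjusted p = 4.5e-09). CXCR4, which holds B cells in the dark zone and marrow, was 2.13 ± 0.24 lower in OCI-LY3 (10.03 against 12.16). Of 20 tested genes, 8 were higher in OCI-LY3 (40% against 25.5% of all genes) and 3 in OCI-LY10 (15% against 20.9%).

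Surface proteins through which B cells meet T cells and natural killer cells also differed. The costimulatory ligands CD80 and CD86 were both higher in OCI-LY3. CD80 was at 8.94, 7.40, 8.84 and 7.51 in OCI-LY3 and at 6.50, 4.96, 5.36 and 5.14 in OCI-LY10 (difference 2.68 ± 0.18, adjusted p = 2.2e-06), and CD86 differed by 2.66 ± 0.14 (9.98 against 7.32). CD58, the ligand of CD2 on T cells, was near background in OCI-LY3 (4.07, 3.66, 3.44 and 3.93) and at 8.46, 7.92, 7.93 and 6.80 in OCI-LY10 (means 3.78 and 7.78, SE of the difference 0.24, adjusted p = 1.1e-06). ICAM1, the ligand of the integrin LFA-1, was 1.99 ± 0.21 higher in OCI-LY3 (7.93 against 5.93, adjusted p = 4.3e-05), with overlapping ranges, since OCI-LY3 in Combo (6.37) lay below OCI-LY10 in Control (6.74). CD38 was 3.04 ± 0.23 higher in OCI-LY3 (7.57 against 4.52), and CD52, a small surface glycoprotein, was at 4.42 to 4.96 in OCI-LY3 and 8.75 to 9.25 in OCI-LY10 (difference -4.36 ± 0.09, adjusted p = 1.5e-09). The Fc receptor-like genes FCRL5, FCRL2 and FCRL3 were higher in OCI-LY10 by 3.07, 2.46 and 2.40. MS4A1, which encodes CD20, had means of 12.54 and 12.14 (difference 0.40 ± 0.11, adjusted p = 0.012), and this call was lost after median centring (adjusted p = 0.066) and without the treatment block (adjusted p = 0.27). Of 35 tested B cell surface genes, 8 were higher in OCI-LY3 (22.9%, near the 25.5% of all genes) and 12 in OCI-LY10 (34.3% against 20.9%).

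Among B cell transcription factors, the ABC-type markers IRF4, FOXP1 and BATF were not called, BATF being named after its values were seen. ETV6, another ABC-type marker, named after its values were seen, was called higher in OCI-LY10 (difference -0.68). Of all 10 ABC-type markers, 2 were called higher in OCI-LY3 and 3 higher in OCI-LY10, against 25.5% and 20.9% of all genes. IRF4 had means of 12.56 in OCI-LY3 and 12.04 in OCI-LY10 (difference 0.52 ± 0.22, adjusted p = 0.083), called in the fit of the 8 arrays alone (adjusted p = 0.03). PAX5, from the B cell markers, differed by 0.18 (95% interval -0.26 to 0.61) and FOXP1 by -0.11 (-0.33 to 0.12). BCL6, the germinal centre repressor, had means of 11.24 in OCI-LY3 and 10.19 in OCI-LY10 with no overlap (difference 1.05 ± 0.12, adjusted p = 7.2e-05). IRF8, a factor of germinal centre B cells, was at 12.12 to 12.75 in OCI-LY3 and at 8.66 to 9.20 in OCI-LY10 (difference 3.45 ± 0.32, adjusted p = 1.8e-05). The inhibitors of E proteins went opposite ways, with ID2 2.10 ± 0.16 higher in OCI-LY3 (12.83 against 10.73) and ID3 3.92 ± 0.30 lower there (4.59 against 8.50). ZEB2 and TBX21, known together from atypical memory B cells, were both near background in OCI-LY3 and higher in OCI-LY10. ZEB2 differed by -3.60 ± 0.19 (3.66 against 7.26) and TBX21 by -3.00 ± 0.35 (3.73 against 6.73). SPIB, an ETS factor of ABC-DLBCL, was at 9.76, 7.22, 7.73 and 5.26 in OCI-LY3 and at 10.05, 10.05, 9.08 and 9.40 in OCI-LY10. Its difference was -0.29 in Control and -4.14 in Combo, so that the mean of -2.15 ± 0.51 (adjusted p = 0.0061) does not hold alike across treatments. Of 40 tested factors, 9 were higher in OCI-LY3 (22.5%, near the 25.5% of all genes), 13 in OCI-LY10 (32.5% against 20.9%) and 18 were not called (median difference -0.06).

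Interferon-response genes had the largest share of members called in one direction among the 24 lists. Of 33 tested, 20 were higher in OCI-LY10 (60.6% against 20.9% of all genes) and 3 in OCI-LY3 (9.09% against 25.5%). The other 10 were not called, and the median difference was -0.83. IFITM1, which blocks virus entry, was at 3.98, 3.84, 4.72 and 3.90 in OCI-LY3 and at 9.35, 8.26, 8.99 and 8.69 in OCI-LY10 (difference -4.71 ± 0.22, adjusted p = 2.5e-07). OAS1, OAS2 and OAS3 are neighbouring genes for sensors of double-stranded RNA. OAS1 was at 7.97, 7.02, 6.99 and 6.69 in OCI-LY3 and at 11.27, 10.46, 10.89 and 9.81 in OCI-LY10 (difference -3.44 ± 0.20, adjusted p = 9.3e-07). OAS2 differed by -3.63 ± 0.24 (4.82 against 8.44) and OAS3 by -3.48 ± 0.22 (4.86 against 8.34). The next tested genes, DTX1 and RASAL1, which are not on the list, differed by -3.85 and -3.25. ISG20, an RNA exonuclease, was an exception, 2.01 ± 0.22 higher in OCI-LY3 (11.92 against 9.90, adjusted p = 5.8e-05). TAP1, PSMB8 and PSMB9, which interferon also raises, were higher in OCI-LY3, as given above.

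**Figure D3:**
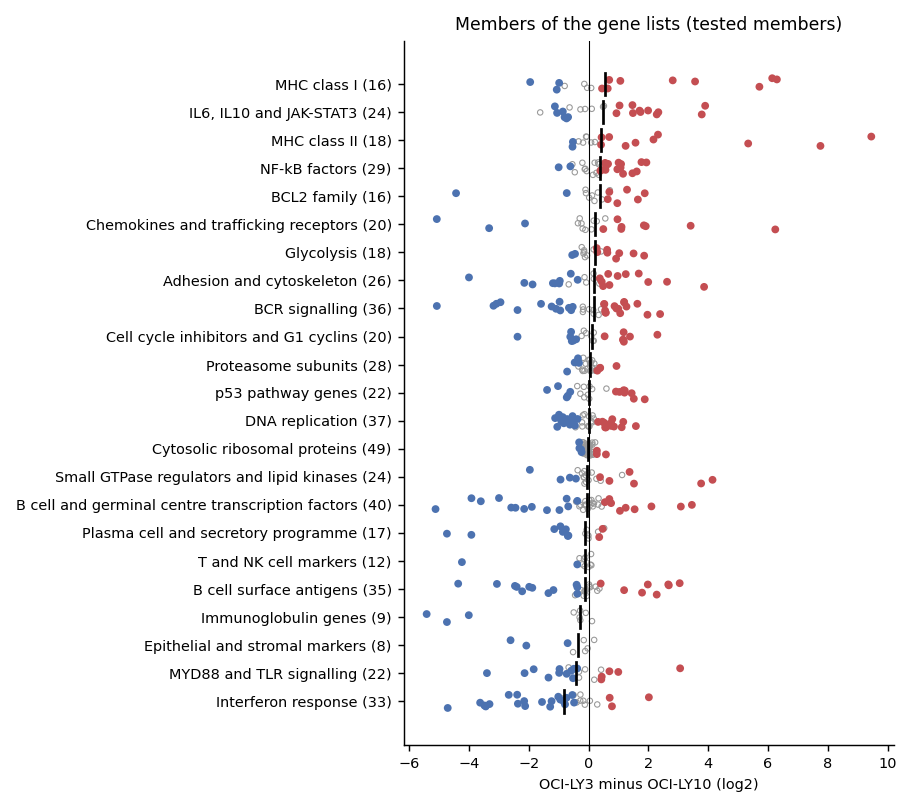
OCI-LY3 minus OCI-LY10 differences (log2) of the tested members of each list with at least 8 of them, with the number tested in brackets, filled points for called genes (red higher in OCI-LY3, blue higher in OCI-LY10), open grey points for the rest and a black bar at the median. The interferon list lies lowest (median -0.83) and the MHC class I list highest (0.54), while ribosomal proteins stay close to 0.

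Survival and cell cycle genes were mixed. The anti-apoptotic genes BCL2 (difference 0.12, 95% interval -0.20 to 0.43), MCL1 (0.20, -0.10 to 0.49) and BCL2A1 (-0.09, -0.41 to 0.24) were not called. With probe sets averaged per gene all of them were called. BCL2 then differed by 0.35 (limma adjusted p = 0.025), MCL1 by 0.29 (0.018) and BCL2A1 by -0.43 (0.047). BIK, a BH3-only killer protein, was at 5.18, 5.88, 5.70 and 5.85 in OCI-LY3 and at 9.97, 9.97, 10.04 and 10.36 in OCI-LY10 (difference -4.43 ± 0.13, adjusted p = 1.1e-08). PMAIP1, another BH3-only gene, was 1.88 ± 0.15 higher in OCI-LY3 (12.56 against 10.69), and BID 1.65 ± 0.16 higher (11.74 against 10.09). Of 16 tested BCL2 family genes, 6 were higher in OCI-LY3 (37.5% against 25.5% of all genes) and 2 in OCI-LY10 (12.5% against 20.9%). The 50.0% called either way was near the 46.4% of all genes. CCND1, cyclin D1, was at 7.28, 5.30, 6.56 and 5.44 in OCI-LY3 and near background in OCI-LY10 (3.61 to 4.00), a difference of 2.30 ± 0.32 (adjusted p = 0.00028). CDKN1A, the p21 inhibitor, was 1.17 ± 0.19 higher in OCI-LY3 (10.53 against 9.36). MTAP, a methionine salvage enzyme whose gene lies beside CDKN2A, was at 5.07 to 5.45 in OCI-LY3 and at 6.94 to 8.10 in OCI-LY10 (difference -2.38 ± 0.22, adjusted p = 1.7e-05). CDKN2A was low in both, at 4.52 and 4.60. MYC had means of 11.02 and 10.49 (difference 0.54 ± 0.18, adjusted p = 0.037), lost without the Control, CPI203 or IRAKi arrays. Of 22 tested p53 pathway genes, 8 were higher in OCI-LY3 (36.4% against 25.5% of all genes) and 5 in OCI-LY10 (22.7%, near the 20.9% of all genes), with a median difference of 0.02.

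Among housekeeping lists, the called share was below that of all genes for ribosomal proteins and the proteasome and above it for DNA replication and glycolysis. Of 49 tested cytosolic ribosomal protein genes, 3 were higher in OCI-LY3 and 4 higher in OCI-LY10, 14.3% called against 46.4% of all genes, and the median absolute difference was 0.11 against 0.34. Of these 7, RPS21 had the largest difference (0.58 ± 0.09, adjusted p = 0.00073). After median centring 15 were higher in OCI-LY10 and 1 in OCI-LY3, and after poly-A scaling 0 and 1. Of 28 constitutive proteasome subunits tested, 4 were called each way (28.6% called), and the largest difference was that of PSMA7 (0.93 ± 0.09). Of 37 DNA replication genes, 12 were called each way (64.9% called), with a median absolute difference of 0.53. Glycolysis genes had 8 of 18 higher in OCI-LY3 (44.4% against 25.5% of all genes), led by ALDOC (1.86 ± 0.10). Another 2 were higher in OCI-LY10 (11.1% against 20.9%), with 55.6% called either way. Poly-A scaling or median centring changed the count higher in OCI-LY10 to 0 or 5. Outside housekeeping, RGS13, which damps chemokine receptor signalling in germinal centre B cells, and RHOF, a small GTPase of actin protrusions, led the GTPase list, at 3.76 ± 0.24 and 4.14 ± 0.11 higher in OCI-LY3. Of its 24 genes, 6 were higher in OCI-LY3 (25%) and 4 in OCI-LY10 (16.7%), near the 25.5% and 20.9% of all genes. Among 26 adhesion and cytoskeleton genes 76.9% were called, 11 higher in OCI-LY3 (42.3% against 25.5% of all genes) and 9 in OCI-LY10 (34.6% against 20.9%). The first were led by S100A10 (10.29 against 6.43) and the second by CD58 and CD63 (8.85 against 10.99 for CD63).

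Genes outside these lists filled most of the top ranks. Higher in OCI-LY3 were BZW2, a translation regulator (10.89 to 10.94 against 3.77 to 4.29, difference 6.90 ± 0.10, adjusted p = 3.7e-10), AHR, the aryl hydrocarbon receptor (10.62, 9.64, 10.75 and 9.62 against 3.77 to 4.02, difference 6.26 ± 0.22), and DEF8 (6.27 ± 0.19). They also included the coagulation factor gene F5 (12.07, 10.48, 11.41 and 10.42 against 5.69, 4.39, 5.37 and 4.77, difference 6.04 ± 0.30), TCFL5 (6.02 ± 0.13), the kinase anchor AKAP12 (6.01 ± 0.10), the serotonin receptor subunit HTR3A (5.79 ± 0.22), ZNF91 (5.76 ± 0.12) and CYB5A (5.63 ± 0.14). In the last gene, cytochrome b5, OCI-LY10 was at 4.55 to 4.61 and OCI-LY3 at 9.93 to 10.67. Higher in OCI-LY10 were PNMA8A (3.45 to 3.86 in OCI-LY3 against 9.67 to 10.59, difference -6.60 ± 0.15, adjusted p = 2.9e-09), ITM2C (-5.97 ± 0.15), the lipoprotein gene APOC2 (-5.87 ± 0.17), RASSF6 (-5.67 ± 0.30) and SEMA3C, a secreted guidance protein (-5.56 ± 0.17). The list went on with the lipid transporter ABCA6 (-5.51 ± 0.24), the gluconeogenic enzyme FBP1 (-5.50 ± 0.15), the mechanosensitive channel PIEZO2 (-5.32 ± 0.13), MNDA (-5.23 ± 0.18), the collagenase MMP1 (-5.18 ± 0.19) and PLAC8 (-5.13 ± 0.15). EGR1, an immediate early transcription factor, was at 4.15, 5.44, 4.28 and 5.21 in OCI-LY3 and at 8.86, 10.11, 9.89 and 11.51 in OCI-LY10 (difference -5.33 ± 0.24, adjusted p = 2.3e-07). OCI-HBL1 stood with OCI-LY3 for BZW2 (10.97) and AKAP12 (11.19), with OCI-LY10 for SEMA3C (8.81), EGR1 (9.89) and KLF2 (8.48), and near background for AHR (3.82), CXCL13 (3.97) and PIEZO2 (3.79).

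Of 12 tested T and NK cell markers, 2 were higher in OCI-LY10 (16.7%) and 0 in OCI-LY3, and the mean over all 16 measured markers ran from 4.06 to 4.18 over the OCI-LY3 arrays and from 4.37 to 4.55 over the OCI-LY10 arrays. GZMB, the granule protease granzyme B, was at 8.52, 7.82, 7.54 and 7.83 in OCI-LY10 and at 3.56 to 3.89 in OCI-LY3 (difference -4.24 ± 0.16, adjusted p = 6.7e-08), while CD3D was at most 3.81 in OCI-LY10. Of 8 tested epithelial and stromal markers, 3 were higher in OCI-LY10 (37.5% against 20.9% of all genes), namely KRT8 (6.45 against 3.84), COL3A1 (5.82 against 3.74) and VWF (4.66 against 3.96), with KRT18, KRT19 and EPCAM at most 4.72, 4.40 and 4.09. The mean over the 12 measured markers was 3.96 to 4.01 in OCI-LY3 and 4.41 to 4.63 in OCI-LY10. Among 11 monocyte markers, 3 were tested, and ITGAM was higher in OCI-LY3 (5.36 against 3.83, adjusted p = 0.0015). The part of other cells in these values was not tested.

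Differences also ran together along chromosomes. Genes were put in the order of the RefSeq annotation of GRCh38.p14, which was used here for order only. Over all genes, 25.5% were called higher in OCI-LY3 and 20.9% higher in OCI-LY10. On chromosome 20, 218 of 355 tested genes were called higher in OCI-LY3 and 15 called higher in OCI-LY10. The median difference there was 0.59, with 0.55 in Control, 0.60 in CPI203, 0.72 in IRAKi and 0.52 in Combo. In windows of 25 tested genes, the median on chromosome 20 was 0.14 at the start, from C20orf96 to ZNF343, and 1.35 near the end, from NPEPL1 to COL9A3. On chromosome 12, 87 of 705 genes were called higher in OCI-LY3 and 288 called higher in OCI-LY10 (median -0.28). The window from MLEC to ZCCHC8 nevertheless had a median of 0.84. On chromosome 10 the counts of called genes were 40 and 192 of 496 (median -0.25) and on chromosome 7, 58 and 251 of 622 (median -0.24). The first window of chromosome 3, from CNTN6 to ARPC4, had the lowest median of all (-1.05). In it 2 of 25 genes had a positive difference, called or not. On chromosome 8, the windows from ZNF596 to UBXN2B had medians from 0.25 to 0.99, and those from IMPA1 to LY6E from -0.41 to -0.04. Of 498 windows, 30 had a median of at least 0.5 and 14 of at most -0.5. Copy number was not measured here.

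**Figure D4:**
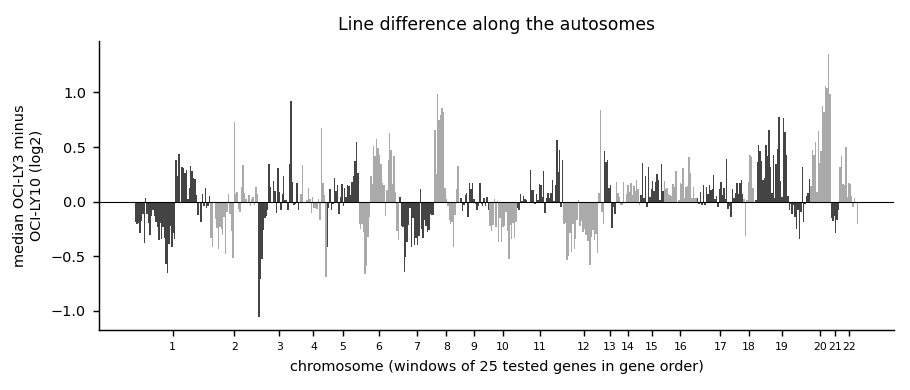
Median OCI-LY3 minus OCI-LY10 difference (log2) in windows of 25 consecutive tested genes along the autosomes, with chromosomes in alternating shades. Chromosome 20 reaches 1.35 near its end, the first windows of chromosome 8 lie up to 0.99, and the first window of chromosome 3 lies at -1.05.

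Some neighbours went further. With a rule set after the values were seen (at least 3 tested genes in a row with standing differences of at least 2 in one direction), 9 runs with 31 genes were found among 501 genes of that size. One was TAP2 to PSMB9 and another OAS1 to RASAL1, as above. A run on chromosome 7 held TMEM106B, ANKMY2, BZW2 and TSPAN13. From COXFA4 to SNX13 around it, 8 of 10 tested genes had a standing difference, against 28.4% of all genes. Among them were COXFA4 (11.60 against 6.91), PHF14 (8.61 against 4.80), TMEM106B (7.70 against 3.57) and AHR. The other 2, THSD7A and AGR2, were low in both lines. OCI-HBL1 had TMEM106B at 7.91 and COXFA4 at 11.73. LRRN1, SUMF1 and SETMAR on chromosome 3 were low in OCI-LY3 (3.53, 4.22 and 4.02) and higher in OCI-LY10, by 2.49, 3.70 and 4.67. CASP4, CASP1 and CARD16, neighbouring genes of the inflammatory caspases, were also higher in OCI-LY10, and were named after their values were seen. CASP4 was higher there by 3.57 (4.71 against 8.28).

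Zinc finger genes of chromosome 19 were a further group, chosen by symbol (ZNF or ZFP and a number) after the values were seen, so it gets no test. Many of these genes encode KRAB repressors that bind repeated DNA, and they lie in tandem clusters. Of 206 tested on chromosome 19, 107 were higher in OCI-LY3 (51.9% against 25.5% of all genes) and 14 higher in OCI-LY10. The median difference was 0.52, against 0.09 for the other 775 genes of the chromosome and 0.09 for 208 zinc finger genes elsewhere. A standing difference of at least 2-fold under every treatment was found for 51 of the 206, with 51 higher in OCI-LY3 and 0 in OCI-LY10. Over all genes these shares were 4.44% higher in OCI-LY3 and 3.43% higher in OCI-LY10. ZNF91 was at 9.30, 9.42, 9.54 and 9.98 in OCI-LY3 and at 3.73, 3.72, 3.50 and 4.26 in OCI-LY10. ZNF682 (7.24 against 3.64), ZNF420 (7.46 against 3.75) and ZNF573 (8.09 against 4.25), named after their values were seen, were likewise low in OCI-LY10. OCI-HBL1 had ZNF91 at 9.96, ZNF682 at 6.75 and ZNF420 at 7.18.

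Lastly, it was asked whether the line difference moved with a drug. The line difference on the 2 arrays with CPI203 (CPI203 and Combo) was set against that on the 2 without it, in a fit with the interaction of line and CPI203. Of 12642 genes 5 were called (0.0396%), with 969 at an unadjusted p below 0.05. The fit of the 8 arrays alone called 0, with 945 at an unadjusted p below 0.05. SGK1, a kinase akin to AKT, was at 11.03, 9.12, 10.77 and 8.89 in OCI-LY3 and at 5.88, 7.11, 6.37 and 7.87 in OCI-LY10. It was lower with CPI203 in OCI-LY3 and higher with it in OCI-LY10, and the line difference shrank by 3.26 ± 0.37 (limma adjusted p = 0.044). DHRS2, a dehydrogenase, was at 4.22, 5.72, 4.58 and 6.14 in OCI-LY3 and at 4.07, 9.12, 5.39 and 10.23 in OCI-LY10, so that the gap was wide on the CPI203 and Combo arrays and at most 0.81 on the others (change of the difference -3.41 ± 0.38, adjusted p = 0.044). RTP4, an interferon-response gene, was at 7.20 and 6.96 in OCI-LY10 without CPI203 and at 4.24 and 4.33 with it, against 3.38 to 3.71 in OCI-LY3 (change 2.55 ± 0.21, adjusted p = 0.012). PEG10, a retrotransposon-derived gene, was at 7.42, 9.63, 7.41 and 9.50 in OCI-LY3 and at 4.76 to 5.34 in OCI-LY10 (change 2.44 ± 0.24, adjusted p = 0.024). SCARNA14, a small Cajal body RNA, was at 4.07, 7.35, 4.60 and 8.15 in OCI-LY3 and at 3.84 to 4.44 in OCI-LY10 (change 3.08 ± 0.25, adjusted p = 0.012). Without the OCI-LY10 IRAKi array SGK1 and DHRS2 lost the call and the other 3 kept it. For IRAKi the same test called 0 genes (0.0%), with 583 at an unadjusted p below 0.05, about what chance alone gives among 12642 genes. The fit of the 8 arrays alone called 0 as well, with 564. On simulated data the IRAKi test found 1.493% of planted changes of 1 on the log2 scale and 60.61% of changes of 2. For CPI203 these shares were 1.493% and 71.21%. The 0 called genes therefore cannot show that the line difference stayed the same with IRAKi.

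**Figure D5:**
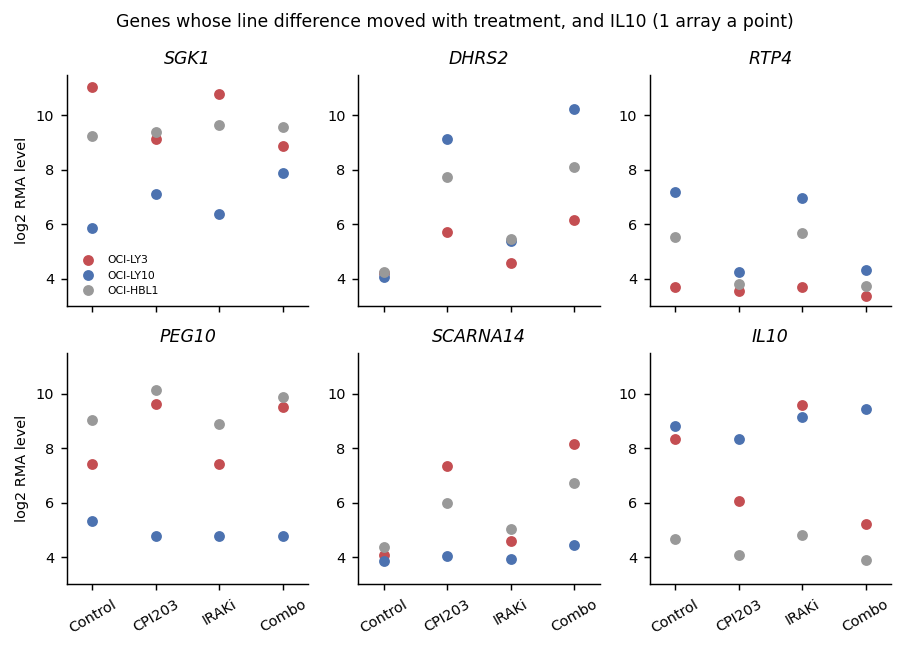
Log2 level on each array for the 5 genes whose line difference moved with CPI203 and for IL10, by treatment and line, with OCI-HBL1 in grey. The gap between the lines is wider on the CPI203 and Combo arrays for DHRS2, SCARNA14 and PEG10 and narrower there for RTP4 and SGK1, and IL10 in OCI-LY3 has its lowest value, 5.23, in Combo.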

How the data were processed

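RNA of 3 ABC-DLBCL lines under 4 treatments was measured on Affymetrix arrays, 1 for each line and treatment, from 150 ng of Trizol-extracted RNA, per the labels' protocols. The deposited table holds log2 values that the authors made with RMA in Affymetrix Expression Console 1.1, per the submitters' processing notes. RMA corrects background, quantile-normalizes and summarises probes, which can hide a global shift between lines. The genome build of the probe sets is not given in the sources used here.

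Of 49386 probe sets, the 45253 with 1 gene were used, and each gene was represented by the probe set with the highest mean. A gene was tested when above the 40th percentile of all values (4.20) on at least 3 of the 12 arrays. This kept 12642 of 17467 autosomal genes, and 708 on X or Y and 64 with no chromosome in the reference table were left out.

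All 12 arrays were fitted with limma 3.58.1 (R 4.3.3) with line and treatment as terms (residual df 6, prior 3.65), and the contrast was OCI-LY3 minus OCI-LY10. Treatment pairs the arrays: deviations from the line means correlated between the lines at 0.64 for Control, 0.45 for CPI203, 0.38 for IRAKi and 0.68 for Combo. Changes of the line difference with a drug were interaction terms (residual df 4). Tests were two-sided, with Benjamini-Hochberg adjustment, and the fit was tested on simulated data. The precision is limited by the number of arrays.

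The part, its 24 gene lists and the naming rule were chosen with earlier results of these data known. Genes named are the 15 highest and 15 lowest standing differences, up to 4 members of each list in each direction by size among those called, up to 5 genes per interaction and direction, and a fixed set of 48. Further genes were chosen after their values were seen. Alternatives were another gene summary, other filters, median centring, cyclic loess, poly-A scaling, other variance models, no treatment block, the 8 arrays alone, a 2-fold threshold, and arrays left out.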

Additional observations from a re-analysis of the deposited data

Results flagged for a closer look

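In 5 genes the line difference itself moved with CPI203, by a test of that change across all genes with limma. The difference moved by -3.41 in DHRS2 (limma adjusted p = 0.044), -3.26 in SGK1 (0.044), 2.44 in PEG10 (0.024), 2.55 in RTP4 (0.012) and 3.08 in SCARNA14 (0.012).

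In 16 of 224 named genes, 1 of the 4 paired differences stood apart from the other 3, where chance gives about 5%. The share is not far above that rate. Many of these genes were chosen by the size of the same differences, so the rate need not hold for them. The OCI-LY10 IRAKi array also had the higher non-specific level (4.00). Under Combo the genes set apart were CCL3 (-6.88), JCHAIN (-5.30) and CD58 (-2.87). Under IRAKi they were IL6 (4.62), CD80 (3.48), SLAMF7 (1.80), PAX5 (0.60), PRDM1 (0.50) and HLA-DMA (-0.45). Under CPI203 they were FYN (2.43), PMAIP1 (2.34) and PSMC2 (-0.66), and under Control BCL6 (1.31), RHOH (1.11), PSMA5 (-0.43) and COL3A1 (-2.90).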

How the results depend on the processing

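Total counts of called and standing genes stayed within 1.5 times the reported values under the alternatives run, except in the settings given next. Every probe set on its own gave 13033 called and 7891 standing of 29479 tested, and a threshold of at least 2-fold gave 1881 and 1601, both by construction. Counts by direction moved further. Poly-A scaling gave 4733 called and 2405 standing. Of these, 1414 and 876 were higher in OCI-LY10, against 2638 and 1623 reported. Higher in OCI-LY3 were 3319 and 1529, against 3229 and 1968. Within 1.5 times, leaving out each treatment in turn gave 4585 to 5478 called and 3461 to 4523 standing. With no replicate block (treatment left out of the model) 4115 genes were called and 3417 standing, all 4115 among those reported. The change of the line difference with CPI203 was called for 9 genes when probe sets were averaged per gene, 49 with trend and robust estimation and 0 in the 8 arrays alone with treatment as the replicate block. The first 2 settings kept the 5 reported genes, and a filter at the 60th percentile kept 4 of them. When probe sets were averaged per gene, 3 genes that were not called took the other sign and were called, HLA-DOB (0.43), HLA-DPA1 (-0.68) and PRDM1 (0.38), and the cause was not tested. Of 197 named genes called, 136 kept the call in all 16 alternatives, 61 lost it in at least 1 and 0 changed sign, and of 27 not called, 15 were called in at least 1. Genes with differences under 1 leave the 2-fold threshold by construction. No batch is given in the labels, and 1 array per line and treatment limits every interaction.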
